A study of Mus musculus with 10 samples.

Results

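An isolated single-start coding promoter is here the 5′ end of a protein-coding gene on chromosomes 1 to 19 whose transcript starts all lie within 500 bp of each other, with no transcript start of any other gene, of any biotype, within 10 kb. Of the 20807 autosomal protein-coding genes in GENCODE M21 (mm10), 7847 had starts within 500 bp and 9085 had no other gene starting within 10 kb, and 3542 genes met both conditions. The 5′ end was the outermost annotated start. It lay on the plus strand in 1698 genes and on the minus strand in 1844. A single transcript was annotated for 1847 of the genes, and 421 had a single exon. At such a gene, up- and downstream can be told apart without the annotated start of another gene near by. Promoters missing from the annotation are not excluded.

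The peaks came from F123 cells, a mouse embryonic stem cell line from a cross between castaneus and S129/SvJae mice. The cells were grown on irradiated mouse embryonic fibroblasts and passaged once without feeders before harvest. Open chromatin was mapped by ATAC-seq in 2 samples and H3K4me3 by ChIP-seq in 2 samples, all untreated. Each assay is represented by a single list of peaks found in both replicates, so no value below has a spread between replicates and no difference was tested. Intervals are 95% Wilson intervals for shares and 95% rank intervals for medians, and they cover counting error over promoters only. The H3K4me3 list held 32496 peaks on the 19 autosomes and the ATAC-seq list 172958. As no read counts come with either list, library depth is unknown.

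H3K4me3 is the trimethylated form of lysine 4 of histone H3, and is found on the nucleosomes around active and poised gene starts. The start itself is usually kept free of nucleosomes, where the transposase of ATAC-seq can cut. In mammals many promoters lie in CpG islands, stretches that have kept their CG dinucleotides, and most promoters of widely used genes and of developmental regulators are of this type.

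Of 10 genes used as markers of embryonic stem cells, 9 had an H3K4me3 peak over the 5′ end, with fold enrichments of 14.9 to 42.9 and a median of 26.4. Of 10 fibroblast genes, 7 had a peak, with fold enrichments of 3.39 to 20.4 and a median of 15.4. Over all 20807 coding genes 62.4% had a peak there, and the median fold enrichment over those was 31.6, above the medians of both marker lists. The feeder cells' part in these peaks was not tested. Zfp42 (also known as Rex1) and Dppa4, both stem cell markers, and Lum, the gene of the collagen-binding protein lumican, are themselves isolated single-start genes. Zfp42 had an H3K4me3 peak of 5764 bp and Dppa4 of 2575 bp. Lum had neither kind of peak over its 5′ end.

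Sequences around 8 of the 5′ ends are printed to show what the geometry below is measured from. Each runs 5′ to 3′ on the strand of the gene, from 130 bases before the first transcribed base through its first 20 transcribed bases, with every CG in capitals (GRCm38, the build also called mm10). Arhgap19 (chr19:41802028-41802177, minus strand) and Slc17a5 (chr9:78588022-78588171, minus) were chosen after seeing the data, for a geometry close to the medians. Srsf6 (chr2:162931398-162931547, plus) had the highest fold enrichment and Trim71 (chr9:114564350-114564499, minus) the widest peak. Zfp42 (chr8:43306961-43307110, minus) is the stem cell marker. Mc3r (chr2:172248362-172248511, plus) and Krt28 (chr11:99374884-99375033, minus) had the narrowest peaks of genes with a proper name. Olfr1028 (chr2:85950307-85950456, plus) had none.
Arhgap19: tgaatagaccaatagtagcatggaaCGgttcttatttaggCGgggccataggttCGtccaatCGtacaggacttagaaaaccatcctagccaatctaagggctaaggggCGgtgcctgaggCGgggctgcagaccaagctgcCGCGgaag
Slc17a5: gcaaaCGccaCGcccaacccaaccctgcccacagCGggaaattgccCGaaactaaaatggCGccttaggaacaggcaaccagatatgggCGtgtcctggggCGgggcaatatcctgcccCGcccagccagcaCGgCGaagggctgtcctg
Srsf6: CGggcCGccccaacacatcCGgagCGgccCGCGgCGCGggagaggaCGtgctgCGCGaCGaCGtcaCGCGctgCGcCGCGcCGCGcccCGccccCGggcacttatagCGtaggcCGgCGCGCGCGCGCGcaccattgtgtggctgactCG
Trim71: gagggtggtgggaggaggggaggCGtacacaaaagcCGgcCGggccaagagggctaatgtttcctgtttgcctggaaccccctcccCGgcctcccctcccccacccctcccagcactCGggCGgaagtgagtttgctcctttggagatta
Zfp42: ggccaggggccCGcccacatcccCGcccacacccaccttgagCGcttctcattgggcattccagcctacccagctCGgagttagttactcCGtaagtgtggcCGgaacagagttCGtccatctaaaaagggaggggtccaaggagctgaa
Mc3r: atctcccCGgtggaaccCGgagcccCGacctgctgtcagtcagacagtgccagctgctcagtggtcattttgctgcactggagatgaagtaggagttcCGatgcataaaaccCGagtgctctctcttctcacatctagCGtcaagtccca
Krt28: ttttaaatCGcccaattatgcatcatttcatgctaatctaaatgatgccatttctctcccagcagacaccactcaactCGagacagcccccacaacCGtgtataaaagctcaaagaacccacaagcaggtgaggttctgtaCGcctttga
Olfr1028: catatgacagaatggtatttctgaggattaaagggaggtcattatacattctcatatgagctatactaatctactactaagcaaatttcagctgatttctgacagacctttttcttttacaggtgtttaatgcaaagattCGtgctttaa

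The Srsf6 window held 31 CG dinucleotides, that of Slc17a5 10 and that of Arhgap19 8. The Trim71 window held 6, that of Zfp42 7, that of Mc3r 6, that of Krt28 4 and that of Olfr1028 1. These windows are short. From 500 bp before to 500 bp after the 5′ end, Trim71 held 78 CG dinucleotides and Zfp42 28. The median there was 58 at isolated single-start promoters with an H3K4me3 peak. The Krt28 window also holds the letters TATAAA from position -30 relative to the first transcribed base.

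Of the 3542 isolated single-start promoters, 1508 had an H3K4me3 peak over the 5′ end (42.6%, interval 41.0 to 44.2%), against 62.4% of all autosomal coding genes. These are called marked below, and the other 2034 unmarked. An ATAC-seq peak covered 1645 of the 5′ ends (46.4%, 44.8 to 48.1%), against 63.6% of all coding genes. The shares were lower than among all coding genes by more than the counting intervals. Marked and open promoters were largely the same: an ATAC-seq peak covered 1439 of the 1508 marked 5′ ends (95.4%, 94.2 to 96.4%) and 206 of the 2034 unmarked ones (10.1%, 8.89 to 11.5%). Over all autosomal coding genes the shares were near these, at 93.8% of marked and 13.5% of unmarked 5′ ends.

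At the marked promoters the H3K4me3 peak lay mostly downstream of the start. It reached a median of 578.5 bp upstream of the 5′ end (554 to 601 bp) and 1283 bp downstream (1252 to 1324 bp). The middle 50% of the promoters had an upstream reach of 365 to 860 bp and a downstream reach of 910 to 1772 bp. The peak reached farther downstream than upstream at 1354 of the 1508 promoters (89.8%, 88.2 to 91.2%), against 83.4% of all marked coding genes. The median difference between the reaches was 645 bp (609 to 686 bp), and a median of 67.9% of the peak lay downstream (67.2 to 68.8%). A reach over 2000 bp was found upstream in 28 promoters (1.86%) and downstream in 269 (17.8%). Over all marked coding genes these shares were higher, at 4.57% and 21.6%, and the median reaches were 707 bp upstream and 1392 bp downstream. Upstream reach ran from 1 to 4557 bp and downstream reach from 9 to 9608 bp. The reaches on the 2 sides were only loosely related, with a Spearman rank correlation of 0.29 across the 1508 promoters, which all come from the same peak list.

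The summit, the position of highest enrichment within the peak, lay downstream of the 5′ end at 1369 promoters (90.8%, 89.2 to 92.1%), against 85.7% of all marked coding genes. Its median position was 202 bp downstream (196 to 207 bp), with the middle 50% between 131 and 303 bp. It fell 0 to 500 bp downstream at 1227 promoters (81.4%). A summit over 500 bp downstream was found at 142 promoters (9.42%) and over 500 bp upstream at 11. Peaks had a median width of 1918 bp (1855 to 1971 bp), a median fold enrichment of 25.4 (24.4 to 26.0) and a median −log10 q of 309. Arhgap19, which encodes a GTPase-activating protein, shows the usual shape. Its peak reached 608 bp upstream and 1472 bp downstream, with the summit at 203 bp and the ATAC-seq midpoint at 86.5 bp. Slc17a5, the lysosomal sialic acid transporter, had a reach of 543 bp upstream and 1215 bp downstream, with the summit at 186 bp and the ATAC-seq midpoint at 107 bp.

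The geometry was nearly the same on both strands, which puts the asymmetry along transcription and not along the chromosome. On the plus strand (752 marked promoters) the median reach was 585.5 bp upstream (552 to 613 bp) and 1278.5 bp downstream (1240 to 1352 bp). On the minus strand (756) it was 570.5 bp (540 to 602 bp) and 1287.5 bp (1249 to 1337 bp). The summit lay at a median of 198 bp on the plus strand (189 to 208 bp) and 204 bp on the minus strand (196 to 212 bp). It was downstream at 89.6% of plus strand promoters (87.2 to 91.6%) and 91.9% of minus strand promoters (89.8 to 93.7%). The ATAC-seq midpoint lay at a median of 93.5 bp on the plus strand (77.5 to 120 bp) and 114 bp on the minus strand (99.5 to 127.5 bp). In each pair the intervals overlapped.

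**Figure D1:**
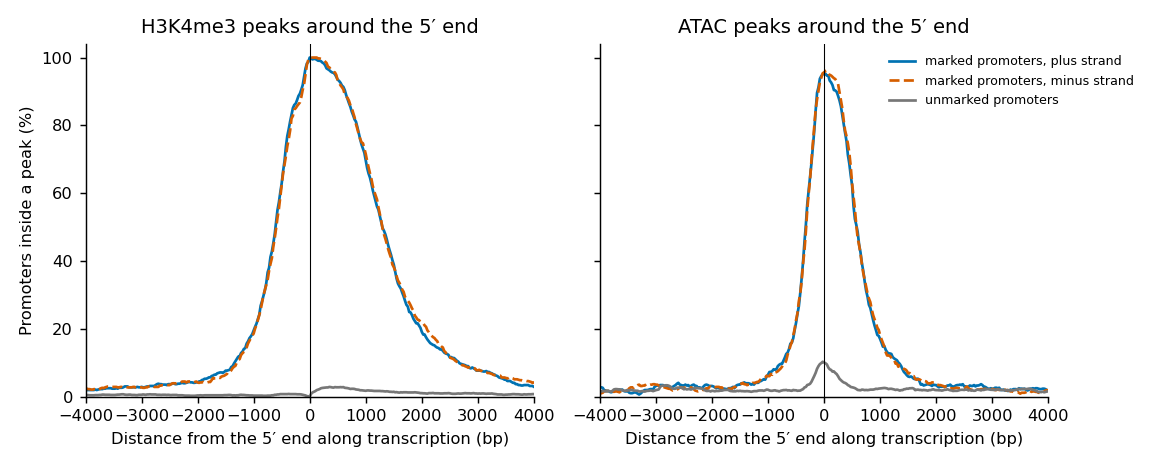
Share of promoters (%, y axis) that lie inside an H3K4me3 peak (left) or an ATAC-seq peak (right) at each distance from the 5′ end (bp along transcription, x axis), for marked promoters on the plus strand (solid blue), marked promoters on the minus strand (dashed orange) and unmarked promoters (grey). Over both strands 62.7% of marked promoters were inside an H3K4me3 peak 500 bp upstream and 93.3% 500 bp downstream, and the lines of both strands nearly coincide.

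Position by position, 19.1% of the marked promoters were still inside an H3K4me3 peak 1000 bp upstream of the 5′ end, and 70.6% were 1000 bp downstream. At 2000 bp the shares were 4.24% upstream and 20.6% downstream, and at 3000 bp downstream 7.76%. ATAC-seq peaks fell off faster. They covered 22.2% of the marked promoters 500 bp upstream, 62.6% at 500 bp downstream and 17.6% at 1000 bp downstream.

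**Figure D2:**
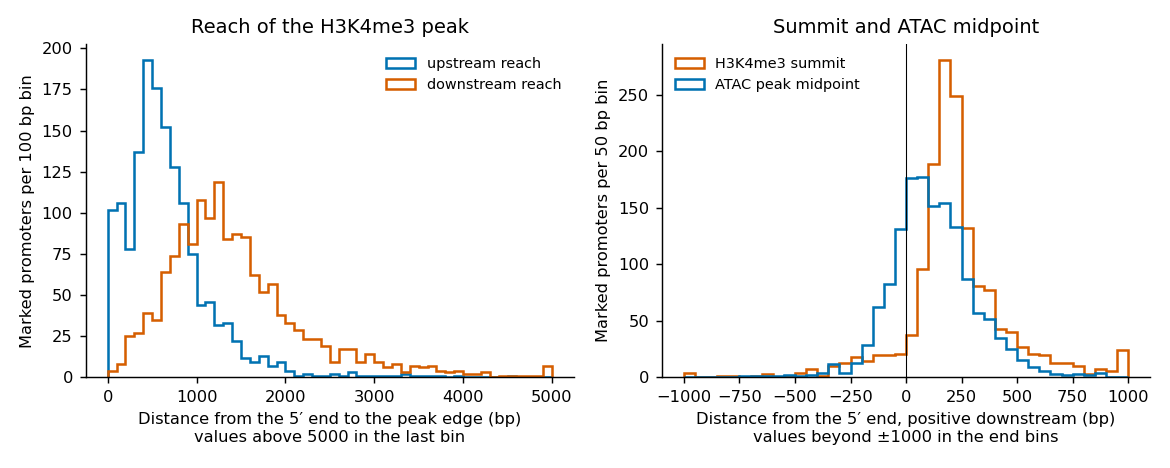
Left, the number of marked promoters (y axis) per 100 bp bin of upstream reach (blue) and downstream reach (orange) of the H3K4me3 peak (bp, x axis, values above 5000 bp in the last bin). Right, the number per 50 bp bin of the distance from the 5′ end to the H3K4me3 summit (orange) and to the midpoint of the ATAC-seq peak (blue), positive downstream, values beyond 1000 bp in the end bins. The medians are 578.5 bp upstream and 1283 bp downstream for the reach, and 202 bp for the summit and 108 bp for the ATAC-seq midpoint.

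The ATAC-seq peak over a marked 5′ end was narrower and nearer to the start. Its median width was 910 bp (889 to 925 bp), its median reach 322 bp upstream (313 to 336 bp) and 549 bp downstream (531 to 564 bp). Its midpoint lay at a median of 108 bp downstream (93 to 120 bp) and was downstream at 1091 of 1439 promoters (75.8%, 73.5 to 78.0%). Over all marked coding genes the median width was 922 bp, and the median reach 352 bp upstream and 526.5 bp downstream. The midpoint there lay at a median of 84.5 bp and was downstream at 69.2%. At the marked isolated promoters the ATAC-seq peak took up a median of 49.1% of the width of the H3K4me3 peak. The H3K4me3 peak contained the whole ATAC-seq peak at 1161 promoters (80.7%). It went past the ATAC-seq edge by a median of 258 bp upstream (240 to 276 bp) and 663 bp downstream (623 to 699 bp). The share of width, the containment and these margins were not calculated over all coding genes.

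The H3K4me3 summit lay inside the ATAC-seq peak at 1327 of the 1439 promoters (92.2%). It was beyond the downstream edge at 102 (7.09%) and beyond the upstream edge at 10. It was downstream of the ATAC-seq midpoint at 1019 promoters (70.8%, 68.4 to 73.1%), by a median of 87 bp over all 1439 (74.5 to 101 bp). Across these promoters the position of the summit and that of the ATAC-seq midpoint had a Spearman rank correlation of 0.34, the upstream reaches of both peaks 0.47 and the downstream reaches 0.32. The values in this paragraph were not calculated over all coding genes.

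Of the 69 marked promoters without an ATAC-seq peak over the 5′ end, 30 had one within 100 bp and 56 within 500 bp. Their median fold enrichment of H3K4me3 was 14.3 (11.0 to 18.5), against 25.6 (24.9 to 26.5) at the marked promoters with ATAC-seq. Their median width was 1812 bp (1484 to 2397 bp), against 1922 bp (1858 to 1977 bp). Only 6 marked peaks held no ATAC-seq peak at any position. The peak held 1 ATAC-seq peak at 1065 promoters (70.6%), 2 at 322 (21.4%) and 3 or more at 115 (7.63%). These counts were made for the isolated single-start promoters only.

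Most unmarked promoters were far from H3K4me3. The nearest peak was a median of 63006 bp away (55958 to 70903 bp), and 261 of the 2034 had one within 10 kb (12.8%). The definition itself excludes other gene starts, around which H3K4me3 is found, within 10 kb. How much of the distance follows from this was not tested. The distance was not calculated for other unmarked coding genes. A peak lay within 500 bp of 73 unmarked 5′ ends, on the downstream side at 61 of them and on the upstream side at 12. Within 50 bp the counts were 26 downstream and 4 upstream, so that these promoters missed the definition by a short distance. The 206 unmarked 5′ ends under an ATAC-seq peak had narrower peaks than the marked ones, with a median width of 410.5 bp (359 to 442 bp). Of these 206, 162 had no H3K4me3 peak within 500 bp, and the median width there was 362 bp.

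The 5 named genes with the widest ATAC-seq peaks among the unmarked show both kinds. Lonrf1, which encodes a RING finger protein, had an ATAC-seq peak of 1962 bp and an H3K4me3 peak 21 bp from its 5′ end. Ddx17, an RNA helicase gene, had an ATAC-seq peak of 1405 bp and H3K4me3 25 bp from the 5′ end. Adamts5, the gene of an aggrecan-cleaving protease, had an ATAC-seq peak of 1183 bp and H3K4me3 17 bp from the 5′ end. By contrast, the 5′ end of the kinesin gene Kif2b, under an ATAC-seq peak of 1225 bp, was 246247 bp from the nearest H3K4me3 peak. The 5′ end of Slc13a2, a dicarboxylate transporter gene with an ATAC-seq peak of 1172 bp, was 13346 bp from the nearest.

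Marked and unmarked promoters stood far apart in CG content. In the window from 500 bp before to 500 bp after the 5′ end, marked promoters held a median of 58 CG dinucleotides (56 to 59) and unmarked ones 7 (7 to 8). The observed number over that expected from the C and G content had a median of 0.682 (0.674 to 0.694) at marked and 0.159 (0.151 to 0.164) at unmarked promoters. The median G and C content was 59.0% and 44.2%. The gap was much the same over all autosomal coding genes, with median counts of 62 at marked and 9 at unmarked 5′ ends. The median ratios there were 0.728 and 0.173. The shares by ratio that follow were calculated for the isolated single-start promoters only. With the ratio at 0.2 or below, 9 of 1319 promoters were marked (0.682%, 0.359 to 1.29%). From 0.2 to 0.4, 124 of 725 were (17.1%, 14.5 to 20.0%), and from 0.4 to 0.6, 386 of 484 (79.8%, 75.9 to 83.1%). From 0.6 to 0.8 the share was 96.9% (587 of 606) and above 0.8 98.5% (402 of 408). The 206 unmarked promoters under an ATAC-seq peak had a median ratio of 0.296, and the other 1828 unmarked promoters 0.149.

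**Figure D3:**
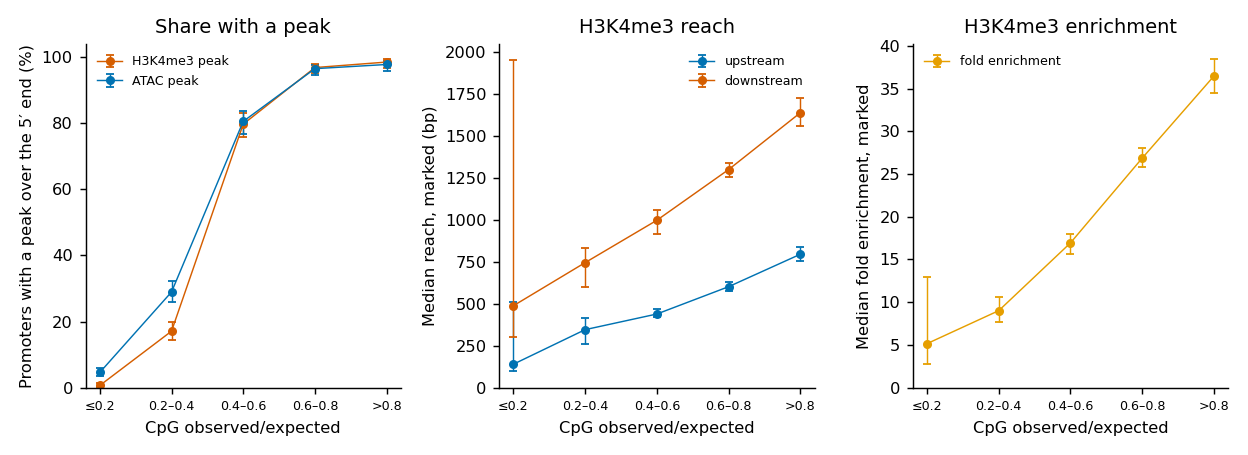
Isolated single-start promoters in 5 bins of the observed over expected CG ratio (x axis). Left, the share (%) with an H3K4me3 peak (orange) and an ATAC-seq peak (blue) over the 5′ end; middle, the median upstream (blue) and downstream (orange) reach (bp) at marked promoters; right, the median fold enrichment of the H3K4me3 peak; bars are 95% intervals. The share marked rises from 0.682% to 98.5%. The median fold enrichment rises from 5.16, over only the few marked promoters of the lowest bin, to 36.4.

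Among the marked promoters, H3K4me3 peaks were also wider and stronger with more CG dinucleotides. The median upstream reach was 345.5 bp (260 to 415 bp) with a ratio from 0.2 to 0.4 and 794 bp (757 to 839 bp) above 0.8. The downstream reach was 744.5 bp (597 to 832 bp) and 1636 bp (1557 to 1726 bp) in the same bins, and the fold enrichment 9.01 (7.63 to 10.6) and 36.4 (34.5 to 38.4). The asymmetry was present in every bin, with the downstream reach the longer at 82.3% of the marked promoters from 0.2 to 0.4 and 93.0% above 0.8. The number of CG dinucleotides had a Spearman rank correlation of 0.56 with the peak width and 0.61 with the fold enrichment over the 1508 promoters. Fold enrichment and width had a correlation of 0.50. In the 25% of marked promoters with the lowest fold enrichment the peak was longer downstream at 80.9% (76.6 to 84.6%), and in the highest 25% at 96.0% (93.5 to 97.6%).

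Short sequence motifs were counted from 250 bp before to 50 bp after the start, on both strands. The GC box GGGCGG, bound by Sp-family factors, was found at 64.0% of marked and 7.42% of unmarked promoters, against 43.7% of all coding promoters. CCGGAAGT, an ETS-type motif, was found at 5.44%, 0.442% and 4.80% of the same groups. The cAMP response element TGACGTCA was found at 3.58%, 0.934% and 2.43%. CCAAT was as common in each, at 37.0%, 39.3% and 38.6%. TATAAA, searched on the sense strand with its first base 40 to 20 bp before the start, was found at 30 marked promoters (1.99%) and 135 unmarked ones (6.64%), against 2.33% of all. The GC box, the ETS motif and the cAMP response element themselves contain CG, so these counts and the CG ratio are not separate measures.

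Between the 25% of marked promoters with the shortest and the 25% with the longest first exons, the median downstream reach differed and the median upstream reach did not. In the 25% of marked promoters with the shortest first exons (up to 151 bp), the median reach was 581 bp upstream (539 to 614 bp) and 1128.5 bp downstream (1066 to 1192 bp). In the 25% with the longest first exons (over 476 bp) it was 581 bp (513 to 661 bp) and 1575 bp (1495 to 1701 bp). The summit moved from a median of 175.5 bp (166 to 188 bp) to 270.0 bp (247 to 303 bp), and the ATAC-seq midpoint from 55.5 bp (39 to 72.5 bp) to 209.5 bp (172 to 239.5 bp). Over all marked promoters the rank correlation between first exon length and downstream reach was 0.24. First exons were also longer with more CG dinucleotides, with a median of 215 bp in the 25% with the lowest CG count and 351 bp in the highest 25%. First exon length was not tested apart from CG count. The summit fell within the first exon at 827 promoters (54.8%), and the downstream edge of the peak lay past the first exon at 1378 (91.4%). The peak passed the 3′ end of the gene at 46 (3.05%). Single-exon genes were marked in 105 of 421 cases (24.9%, 21.0 to 29.3%) and genes with several exons in 1403 of 3121 (45.0%, 43.2 to 46.7%). Their median CG ratios were 0.236 and 0.315, and exon number was not tested apart from CG content. These shares were not calculated over all coding genes. At marked single-exon genes the median downstream reach was 1687 bp (1518 to 2016 bp). At genes with several exons it was 1270 bp (1242 to 1298 bp). Gene length had a rank correlation of -0.04 with the downstream reach, but the relation was not even. From the shortest to the longest 25% of genes the median downstream reach was 1398, 1202, 1274 and 1341 bp. A downstream reach over 2000 bp was found at 26.3%, 14.9%, 14.3% and 15.9%.

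The shape was compared with that at 2 like kinds of promoter. The 5543 isolated genes with starts spread over more than 500 bp were marked more often (64.3%, 63.0 to 65.5%). Their median reach was 624 bp upstream (609 to 639 bp) and 1472 bp downstream (1448 to 1496 bp), and the peak was longer downstream at 92.5% (91.6 to 93.4%). The 4305 single-start genes with a neighbour within 10 kb were marked in 57.4% of cases (55.9 to 58.9%). They had a longer median upstream reach of 750 bp (726 to 782 bp) and a like downstream reach of 1285 bp (1258 to 1316 bp), and the peak was longer downstream at 77.0% (75.3 to 78.6%).

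With a neighbouring start within 1 kb the upstream reach was longer, while the median downstream reach lay between 1234 and 1355 bp at every distance. At the 528 single-start genes with a divergent coding gene starting upstream within 1 kb, 87.7% were marked (84.6 to 90.2%). There the median reach was 1325 bp upstream (1258 to 1382 bp) and 1234 bp downstream (1179 to 1275 bp), and the peak was longer downstream at 46.9% (42.4 to 51.4%). The summit was downstream at 52.3% (47.7 to 56.8%), and the ATAC-seq midpoint lay at a median of -51.75 bp, upstream of the start. Once the nearest start was 1 to 5 kb away, the median upstream reach was 541.5 bp (499 to 583 bp). From 5 to 10 kb it was 535 bp (502 to 584 bp), and within the isolated promoters 558 bp at 10 to 20 kb, 587 bp at 20 to 50 kb and 612.5 bp beyond 50 kb. Beyond 1 kb, the share marked stayed between 39.6% and 51.0%.

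**Figure D4:**
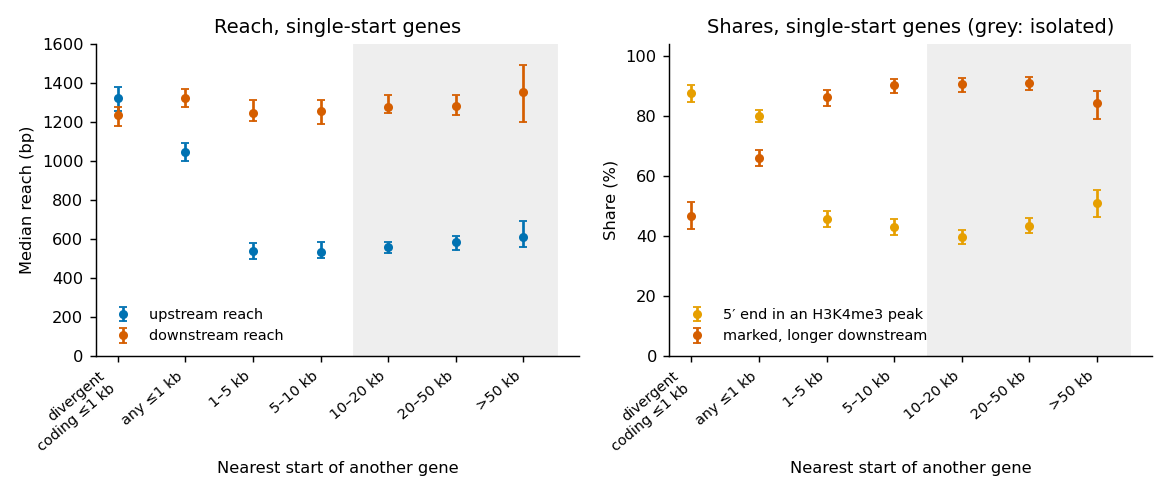
Single-start coding genes by the distance to the nearest start of another gene (x axis; the first group has a divergent coding neighbour within 1 kb and is part of the second, and the grey area holds the isolated promoters). Left, median upstream (blue) and downstream (orange) reach of the H3K4me3 peak (bp); right, the share (%) with an H3K4me3 peak over the 5′ end (yellow) and the share of marked promoters with the longer reach downstream (orange); bars are 95% intervals. Upstream reach is 1325 bp with a divergent neighbour and 558 bp at 10 to 20 kb.

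Promoters just inside and just outside the limits of the definition are given for description. Single-start genes whose nearest other start lay 9001 to 10000 bp away, just outside the group, were marked in 100 of 202 cases, with a median reach of 534 bp upstream and 1285 bp downstream. Those at 10001 to 11000 bp, just inside, were marked in 92 of 218, with 661.5 bp and 1398 bp. Isolated genes whose starts span 401 to 500 bp were marked in 65 of 93 cases and those with 501 to 600 bp in 46 of 68. Their summit medians were 303 bp and 223 bp.

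Genes were also grouped by family from their symbols. The 96 isolated single-start olfactory receptor genes had no H3K4me3 and no ATAC-seq peak over the 5′ end (0%, up to 3.85%). Of the 183 vomeronasal, taste and Mrg receptor genes none was marked (up to 2.06%) and 1 had an ATAC-seq peak. These sensory receptors had median CG ratios of 0.104 and 0.113. Keratins, keratin-associated proteins and defensins were marked in 3 of 61 cases (4.92%), and interferons, interleukins and chemokines in 4 of 33 (12.1%). Cytochrome P450 and UDP-glucuronosyltransferase genes, which act in steroid and drug metabolism, were marked in 7 of 52 (13.5%). In each of these families the share over all its coding genes was low too, from 0.0887% to 19.7%.

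Developmental transcription factors were marked in 29 of 32 cases (90.6%, 75.8 to 96.8%), and in 88.4% of all their coding genes. Their peaks had a median width of 2954 bp and a median fold enrichment of 19.1, against 1918 bp and 25.4 over all marked isolated promoters and 2212 bp and 31.6 over all marked coding genes. Proneural and related bHLH factors were marked in 8 of 9 (90.7% of all their coding genes), with a median width of 3121.5 bp and fold enrichment of 16.6. Signalling ligands were marked in 25 of 32 (78.1%, against 84.1% of all their coding genes), with 2716 bp and 19.7. Zinc finger genes named Zfp were marked in 64 of 83 cases (77.1%, against 84.7%), with 1810 bp and 27.7. The developmental factors, bHLH factors and ligands had wider median peaks and lower median fold enrichments than the marked isolated promoters as a whole, and the Zfp genes had narrower peaks and a higher fold enrichment.

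Among other families, ribosomal and mitochondrial ribosomal protein genes were marked in 12 of 17 cases (70.6%, against 90.6% of all their coding genes), with a median width of 1839 bp and a median fold enrichment of 40.5. The unmarked ones include Rpl10-ps3 and Rpl36-ps4, annotated as protein-coding but with the ps suffix of pseudogene symbols. The lower share is thus not one of proven ribosomal protein genes alone. Respiratory chain and ATP synthase genes were marked in 7 of 8 (87.5%, against 91.3%), with 1802 bp and 34.8, and both heat shock and chaperone genes were marked (against 89.9%). Small GTPase genes were marked in 15 of 16 (93.8%, against 85.7%), with 2596 bp and 32.4. Ubiquitin conjugation and proteasome genes were marked in 13 of 23 cases (56.5%, against 82.3%), with a median fold enrichment of 33.6. Solute carriers were marked in 20 of 48 (41.7%, against 66.4%), with 18.4. Neurotransmitter and orphan G protein-coupled receptors were marked in 32 of 45 (71.1%, against 63.4%), potassium channels in 15 of 21 (71.4%, against 73.9%) and ligand-gated ion channels in 8 of 13 (61.5%, against 64.3%). Their fold enrichments had medians of 13.6, 19.1 and 16.8.

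**Figure D5:**
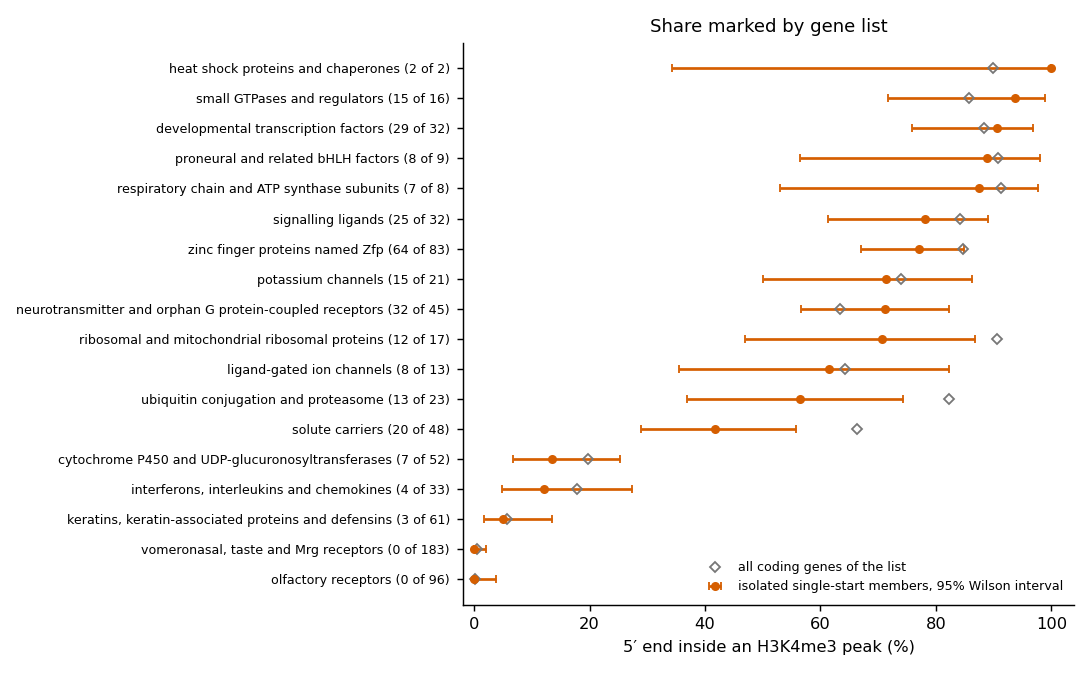
Share of the isolated single-start genes of each family with an H3K4me3 peak over the 5′ end (%, x axis; orange points with 95% Wilson intervals, counts in parentheses) and the same share over all autosomal coding genes of the family (open grey diamonds). Sensory receptor families sit at 0% and developmental transcription factors at 90.6%.

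Within families, the widest and narrowest peaks show the range. Among the developmental factors, the Nkx6-1 peak was 8251 bp wide and that of the forkhead gene Foxi2 944 bp. The H3K4me3 peak nearest to Foxi1 was 15005 bp from its 5′ end, and Foxs1 had one 74 bp from its 5′ end. Among ligands, the Wnt3 peak was 6518 bp wide, with 3540 bp upstream and 2977 bp downstream. Rps6, of the small ribosomal subunit, had a peak of 3472 bp with a fold enrichment of 36.7. Rpl39l, a paralogue of Rpl39, had 1013 bp and 4.58. Cox5a, a cytochrome c oxidase subunit gene, had 2799 bp and 41.4, and Cox8c, of the same complex, had 597 bp and 2.68. Cyp26a1, which encodes a retinoic acid-degrading enzyme, had 5160 bp, with 2454 bp upstream and 2705 bp downstream. Cyp2j9 had 973 bp.

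The 5 widest peaks belonged to Trim71, Sall1, Nkx6-1, Sp5 and Spry2. Trim71, a stem cell RNA-binding ubiquitin ligase gene, had a peak of 10629 bp, with 1020 bp upstream, 9608 bp downstream and the summit at 1819 bp. Its first exon is 2065 bp long, and the peak held 4 ATAC-seq peaks. Sall1, a zinc finger factor gene, had 8526 bp, with 3652 bp upstream and 4873 bp downstream and the summit at 1852 bp. Nkx6-1, a homeodomain factor gene, had a peak of 8251 bp that reached 4557 bp upstream, the largest upstream reach of all 1508, and no ATAC-seq peak over the 5′ end. Sp5, a Wnt-responsive zinc finger gene, had 7442 bp, and Spry2, an inhibitor of receptor tyrosine kinase signalling, 7366 bp. Apart from Trim71, these wide peaks reached at least 2930 bp on the upstream side.

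The 5 highest fold enrichments were at Srsf6 (81.2), a splicing factor gene, Znhit3 (72.4), Pigm (64.7), Ddi2 (63.9) and Akirin2 (63.5). Pigm encodes a mannosyltransferase of GPI anchor synthesis and Ddi2 a protease linked to the proteasome. Their peaks were 2322 to 3521 bp wide, narrower than any of the 5 widest. Srsf6 reached 1212 bp upstream and 2308 bp downstream, with the summit at 180.0 bp. Akirin2 had its summit at -71 bp, just upstream of the start.

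Trim71, Irf2bp2, Nrp2, Sox4 and Zfp42 had the largest excess of downstream over upstream reach. Irf2bp2, a transcriptional corepressor gene, reached 1296 bp upstream and 5670 bp downstream. Nrp2, a semaphorin receptor gene, reached 760 bp and 5465 bp, with the summit at -157 bp. Sox4, an HMG box factor gene, reached 645 bp and 5270 bp, over a first exon of 4795 bp. Zfp42 reached 672 bp and 5091 bp. Its CG count in the 1 kb window was 28, below the marked median of 58.

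The opposite shape was found at Kcnk9, Sptssb, Msx1, Cbx8 and Gsx1. Kcnk9, a leak potassium channel gene, reached 3277 bp upstream and 843 bp downstream, with the summit at -1317 bp and no ATAC-seq peak over the 5′ end. Sptssb, a regulatory subunit gene of serine palmitoyltransferase, reached 1913 bp and 215 bp, with the summit at -1017 bp and the ATAC-seq midpoint at -749 bp. Msx1 and Gsx1, both homeobox genes, reached 3172 bp and 3415 bp upstream, with summits downstream at 488 bp and 397 bp. Cbx8, a Polycomb subunit gene, reached 2557 bp upstream and 1176 bp downstream. The summit farthest upstream, at -1561 bp, was that of the ephrin gene Efna5, whose peak held 7 ATAC-seq peaks and none over the 5′ end. Whether transcripts start at another place than the annotated 5′ end of these genes in F123 cells was not tested.

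The narrowest peaks of genes with a proper name were those of Mc3r (264 bp), Krt28 (279 bp) and Rgs4 (316 bp). Mc3r encodes a melanocortin receptor and Rgs4 a regulator of G protein signalling. Their fold enrichments were 3.34, 3.58 and 6.08, and their summits lay within 82 bp of the start. Krt28 and Rgs4 were among the 30 marked promoters with TATAAA.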

How the data were processed

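The data are 2 peak lists of F123 cells, each made by the authors from 2 replicates. For ATAC-seq, per the study's methods, reads were mapped to mm10 with Bowtie 1.1.2, read ends were moved 4 bp, and MACS2 2.1.1.20160309 was run at a p threshold of 0.01, with pooled peaks found in both replicates kept. The deposited list holds positions only. H3K4me3 ChIP-seq went through the ENCODE histone pipeline at default parameters. Its aligner was not given in the sources used here. The deposited narrowPeak list gives, per peak, a fold enrichment, −log10 p and −log10 q values (only q was used), a summit and a display score (not used here).

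Transcript starts came from GENCODE M21 and sequence from GRCm38. A promoter was marked when a peak covered the base of the 5′ end. Reach is the distance from that base to the peak edge, and the summit is column 2 plus column 10. Overlaps were checked with bedtools, and the geometry was tested on simulated data. Scripts used numpy 2.4.6 and pandas 2.3.3 under Python 3.11.15, scipy 1.17.1 for intervals and pysam 0.24.0 for sequence. No test was run, since each list pools both replicates.

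Named genes are, among the marked, the 5 widest peaks, 5 highest fold enrichments, 5 largest reach differences in each direction, 3 narrowest peaks and 3 summits farthest upstream. Added to these are the 5 unmarked genes with the widest ATAC-seq peaks, members among the cell type markers, and up to 4 genes per family (the widest, the narrowest and 2 unmarked). Placeholder symbols (Gm or Rik names, 537 members of which 59 were marked) were skipped, and some items that the rule names are not reported here. The members, families and settings were chosen with earlier results of these data known.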

Additional observations from a re-analysis of the deposited data

How the results depend on the processing

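Of 98 values from other settings, 75 stayed within the reported 95% interval (or within 1.5 times the member count) and 23 did not, and none changed direction. The member count was 1802 with other starts beyond 20 kb and 5520 with coding transcripts only. The share marked was 45.4% at 20 kb, 38.0% with starts within 100 bp, 45.6% with only coding neighbours, 55.2% with coding transcripts only, 40.8% with X and Y, 49.2% for genes of at least 5 kb, and 44.6% when a peak within 500 bp counted. Upstream reach was 612 bp with only coding neighbours, 610.5 bp from the median start, 610 bp with coding transcripts only and 606.5 bp with peaks joined. Downstream reach was 1251.5 bp from the median start and 1341 bp with coding transcripts only. From the median start, the downstream side was longer at 86.9%, the summit downstream at 88.1%, its median 173 bp and the ATAC-seq midpoint 72.5 bp. With starts within 100 bp, the summit was at 188 bp and the ATAC-seq midpoint at 89.75 bp. ATAC-seq covered 93.8% when a peak within 500 bp counted and 93.4% with the widest 50% of its peaks.

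No paired analysis was possible because each list pools both replicates, and for that reason leaving out a replicate was not possible either. The intervals cover counting error over promoters only, not error between cultures or in peak calling. Peak edges depend on depth and on the caller's threshold, and depth is unknown. A wide peak can be split by the caller. The 5′ end is annotated, not measured in F123 cells, and the outermost start moves offsets downstream where a gene has several starts.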

Other observations

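Further ATAC-seq peaks stood on both sides of the marked promoters. Within 5 kb, another ATAC-seq peak inside the same H3K4me3 peak was found downstream at 360 promoters (23.9%, 21.8 to 26.1%) and upstream at 176 (11.7%, 10.1 to 13.4%). Outside the H3K4me3 peak the sides were the other way round, with ATAC-seq peaks upstream at 449 (29.8%, 27.5 to 32.1%) and downstream at 270 (17.9%, 16.1 to 19.9%). The H3K4me3 peak itself takes up more of the 5 kb downstream than upstream, and the counts were not adjusted for the space left. Whether that space goes with the difference between the sides was not tested. Around unmarked 5′ ends, ATAC-seq peaks were found upstream at 483 (23.7%, 21.9 to 25.6%) and downstream at 420 (20.6%, 18.9 to 22.5%). A separate H3K4me3 peak lay within 5 kb upstream at 161 marked promoters (10.7%) and downstream at 137 (9.08%). None of these counts was made over all coding genes.

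By chromosome, the share of isolated single-start promoters with H3K4me3 ran from 23.9% on chromosome 14 (54 of 226) and 26.7% on chromosome 7 (92 of 344) to 65.1% on chromosome 12 (69 of 106). The same shares over all coding genes of each chromosome were not calculated. Nor was the make-up of the promoters by gene family or CG content compared between chromosomes. The shape at the marked promoters varied less. The longer reach was downstream at 81.7% of them on chromosome 5 and at 96.2% on chromosome 19, the lowest and highest of the 19.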
